A study of Mus musculus with 5 samples.

Results

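WNT ligands, the carrier protein that secretes them and the R-spondins that amplify their signal were followed through single cells of the mouse ocular area. The set has 9 genes, chosen by name from 27998 genes in the matrix: the ligands Wnt3, Wnt4, Wnt6, Wnt7b and Wnt8b, the carrier Wls, and the R-spondins Rspo1, Rspo2 and Rspo3. For each gene the raw UMIs, which are distinct captured RNA molecules, were summed over every cell class and over each library. The questions were which class each RNA came from and how its level varied.

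Per the labels, each of 5 wild-type C57BL/6J embryos gave 1 sample of the ocular area, at 12, 16, 20, 24 and 26 somites, and a library was made from both optic areas with the 10x Genomics Chromium 3′ chemistry. The tissue was cut out by needle, so each library also holds forebrain, ectoderm and mesenchyme around the optic vesicle. The matrix pools all samples, and its barcode suffixes 1 to 5 separate the libraries but name no stage. The libraries are therefore numbered by suffix, their values are given one by one, and no stages are compared. Libraries that cannot be tied to a stage were not treated as replicates, so class comparisons are described by their size, their counting interval and their direction within each library, with no p-value.

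Secreted WNT proteins carry a lipid that the acyltransferase Porcn attaches, and Wls ferries them to the cell surface. There they bind Frizzled receptors with the co-receptors Lrp5 and Lrp6, which in the canonical branch stabilises beta-catenin and switches on genes such as Axin2. R-spondins bind Lgr receptors and the ubiquitin ligases Znrf3 and Rnf43, which keeps Frizzled on the surface. In the developing eye, canonical signal is known for its role in the pigment epithelium and in the ectoderm around the lens, and forebrain WNT is known to restrict the eye field.

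The promoters of 6 of the 9 genes were found in the RefSeq table for build GRCm38.p6, and those of Wnt7b, Rspo2 and Rspo3 were not used here. Each window runs from 250 bases before to 50 bases after the start of transcription in RefSeq, which for Wnt4 lies 146 bases downstream of the GENCODE gene start and for Wnt6 and Wnt8b is the same. The promoters of Wnt6 and Wnt4 are shown because both RNAs came from the same ectodermal cluster, and that of Wnt8b as the ligand of the neighbouring forebrain. Wnt6 lies at chr1:74771642-74771941, Wnt4 at chr4:137277385-137277684 and Wnt8b at chr19:44493222-44493521, each on the plus strand. Capitals mark matches to GCCNNNGGC, the consensus of AP-2 factors, in the first 2 sequences, and in the last to ACAAAG, a SOX consensus read here on the other strand, and then to TAATTA, a homeodomain core.
Wnt6 promoter: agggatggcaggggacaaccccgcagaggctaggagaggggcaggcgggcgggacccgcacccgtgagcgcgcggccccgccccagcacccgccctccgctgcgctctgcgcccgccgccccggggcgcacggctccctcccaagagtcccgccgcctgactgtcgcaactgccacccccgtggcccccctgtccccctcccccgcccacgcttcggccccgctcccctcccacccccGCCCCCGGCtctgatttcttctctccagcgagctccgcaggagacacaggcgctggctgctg
Wnt4 promoter: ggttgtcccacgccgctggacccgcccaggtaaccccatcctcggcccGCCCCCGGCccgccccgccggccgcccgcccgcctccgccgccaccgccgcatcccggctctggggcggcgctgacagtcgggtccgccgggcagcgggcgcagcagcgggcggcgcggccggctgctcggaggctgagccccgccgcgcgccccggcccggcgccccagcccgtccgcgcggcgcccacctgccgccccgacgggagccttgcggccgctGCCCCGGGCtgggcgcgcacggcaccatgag
Wnt8b promoter: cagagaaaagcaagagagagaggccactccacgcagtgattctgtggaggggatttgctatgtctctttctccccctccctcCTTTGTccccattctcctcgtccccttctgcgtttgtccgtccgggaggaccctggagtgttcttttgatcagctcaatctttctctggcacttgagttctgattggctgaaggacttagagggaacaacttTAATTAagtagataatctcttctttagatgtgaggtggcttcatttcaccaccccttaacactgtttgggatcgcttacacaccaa

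These motifs and the TCF/LEF core CTTTGA were searched on both strands in all 6 promoters. Wnt4 had 2 AP-2 matches, at 202 bases before and 20 bases after the start, Wnt6 had 1 match 12 bases before it, and Wnt3 had 2 matches. Such a match was found in 16.6% of the 32851 promoters in the table. Wnt8b had the homeodomain core 36 bases before the start, a match held by 5.29% of all promoters, and the SOX consensus 168 bases before it, held by 18.7%. Wnt3 also had 1 SOX match. CTTTGA was in 0 of the 6 windows and in 16% of all promoters, and Wls and Rspo1 had none of the 4 motifs. The matches describe letters only, and none was tested as a binding site.

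After filters 8106 cells were kept, and libraries 1 to 5 held from 41694822 to 72925591 UMIs, with medians of 20713 to 30922 UMIs per barcode. Clusters were named by marker genes, and 7 classes had at least 50 cells and a name: 405 surface ectoderm-like, 439 head mesoderm-like, 1779 cranial neural crest mesenchyme-like, 1703 other forebrain-like, 1739 optic vesicle-like, 388 endothelium-like and 253 erythroid-like cells. Clusters low in nuclear RNA (787 cells), clusters with markers of several classes (305 cells) and an unnamed neuroepithelium (204 cells, 196 from library 2) stayed outside the classes. Ectodermal markers were at 2052 CPM, a gene's UMIs scaled to 1000000 UMIs of the class, in the ectoderm and at most 41.0 CPM in the other 6 classes, while optic vesicle markers were at 1440 CPM in the vesicle, 603 CPM in the other forebrain and 476 CPM in the ectoderm. Of the forebrain lists, diencephalon and hypothalamus markers were at 415 CPM in the other forebrain and 236 CPM in the vesicle. Telencephalon markers went the other way, at 511 CPM in the other forebrain and 724 CPM in the vesicle. The name other forebrain therefore does not rest on every forebrain list. Crest mesenchyme markers were at 1199 CPM in crest and 711 CPM in head mesoderm, so the mesenchymes are less sharply separated. Other forebrain-like cells numbered only 11 in library 5 and head mesoderm-like cells 4, so values there, under the minimum of 20 cells, are not given. In all, 40 barcode sequences occurred in more than 1 library. Since the 3′ chemistry counts molecules, levels are not divided by gene length. Intervals are exact 95% Poisson or binomial intervals, which cover counting error alone and say nothing of how embryos vary. Fewer transcribing cells and less RNA per cell cannot be told apart in a class sum.

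Wnt6 RNA was almost confined to surface ectoderm-like cells, which held 97.7% of its 1054 UMIs. Wnt6 (ENSMUSG00000033227, chromosome 1, 74771892 to 74785322) is a ligand long known from embryonic ectoderm. Its level in the ectoderm was 81.3 CPM (76.4 to 86.4), while head mesoderm, the next class, had 2 UMIs and the other classes at most 7. In libraries 1 to 5 the ectoderm had 229, 34.3, 37.9, 71.7 and 135 CPM of Wnt6. Library 1 was the highest and libraries 2 and 3 the lowest, and no library of any other class exceeded 0.499 CPM, so ectoderm and the rest did not overlap. With every cell thinned to 10000 UMIs, Wnt6 was detected in 25.5% of ectodermal cells (21.3 to 30.1%). It was detected in 0 of 253 erythroid-like cells, which should lack it and in which a count of 0 allows a share of up to 1.45%. Without thinning the shares were 31.9% in ectoderm at a median of 28307 UMIs and 0.395% in erythroid-like cells at 42576 UMIs.

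Wnt4, a ligand needed for kidney tubules and the ovary, shared this source at a lower level. Wnt4 (ENSMUSG00000036856, chromosome 4, 137277489 to 137299726) was at 25.2 CPM (22.5 to 28.1) in ectoderm, 25.8 times the 0.975 CPM of head mesoderm (14.2 to 52.2). In libraries 1 to 5 the ectoderm had 21.8, 10.4, 12.1, 25.6 and 99.1 CPM of Wnt4. Library 5 stood well above the other libraries, and no library of another class exceeded 1.25 CPM. Without library 5 the pooled ectodermal level was 16.2 CPM. Below the ectoderm, the order of head mesoderm, other forebrain, endothelium, crest mesenchyme and optic vesicle was within counting error between each neighbour.

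Wnt3, the ligand that starts the primitive streak, had 44 UMIs in all, in 38 cells. Wnt3 (ENSMUSG00000000125, chromosome 11, 103774150 to 103817957) was at 0.868 CPM (0.433 to 1.55) in ectoderm and 0.458 CPM (0.291 to 0.688) in other forebrain, and this order was within counting error. Its 11 ectodermal UMIs fell in libraries 1, 4 and 5, with 1, 5 and 5 UMIs, while 13 of its 23 forebrain UMIs were in library 2. At this depth no class can be named as its source.

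**Figure D1:**
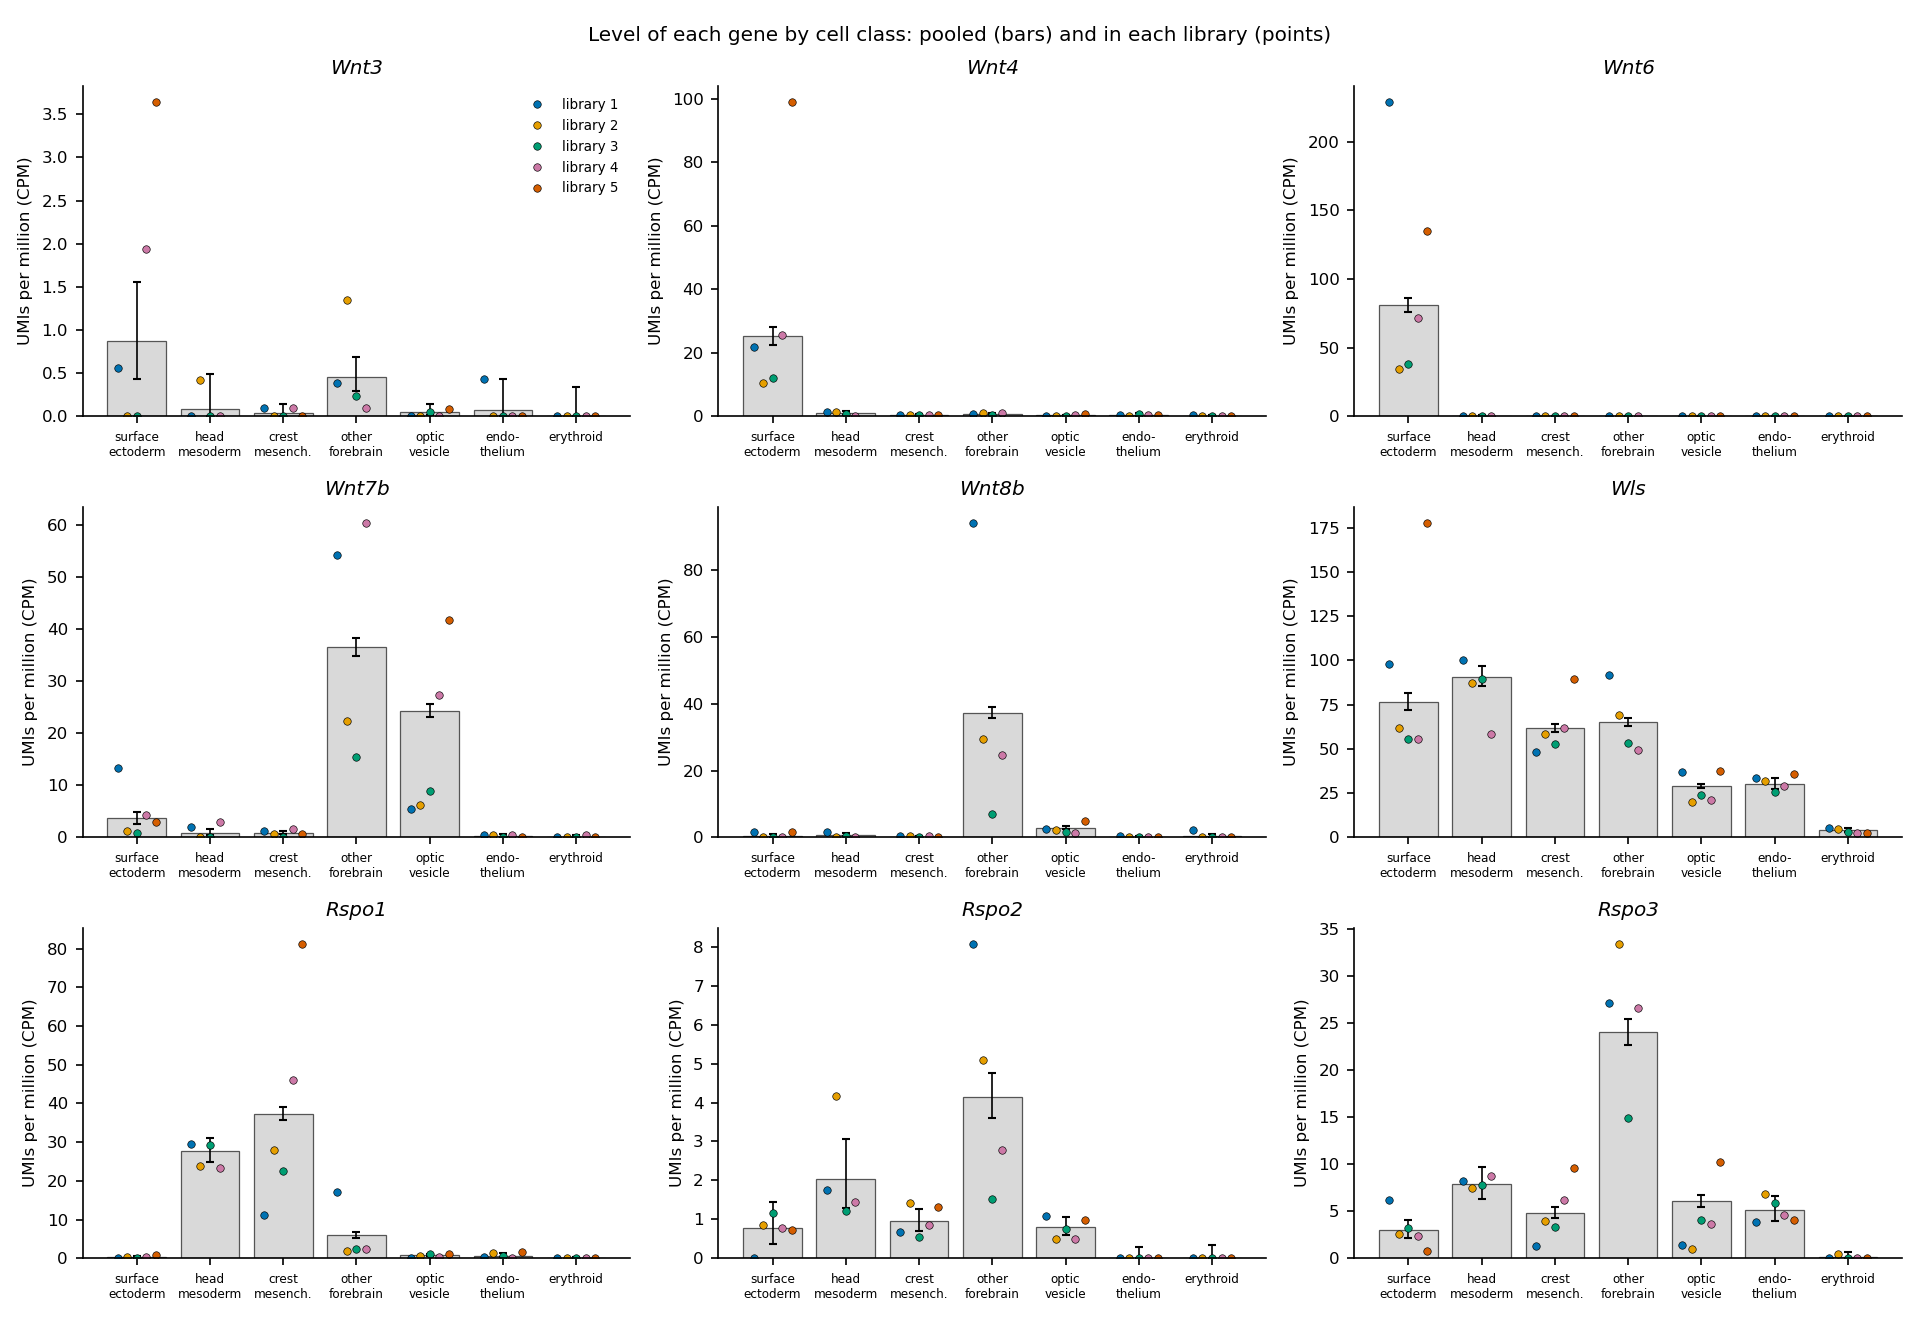
Level of each of the 9 genes in 7 cell classes, in CPM on a linear axis. Grey bars give the pooled class with its exact 95% Poisson interval, and points give each library with at least 20 cells of the class. Wnt4 and Wnt6 stand in surface ectoderm, Wnt8b in other forebrain, Wnt7b in forebrain and optic vesicle, Rspo1 in both mesenchymes, and Wls in every class except erythroid.

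Set against the optic vesicle, the surface ectoderm-like class had more Wnt6, Wnt4 and Wls RNA. The position of its cells was not measured, so they need not have lain over the vesicle. Endoderm markers were also found in the class, at a summed 81.3 CPM. A gene was called when the ratio was at least 2 after adding 5 CPM to both sides, the exact interval of the raw ratio excluded 1, the higher class reached 5 CPM, and every library with 20 cells of both classes had the same direction. By this rule 3 of the 9 genes were higher in ectoderm, where 4.68% of 9430 genes tested were, and 0 were lower, where 1.41% were. Wnt6 was 1277-fold higher (497 to 4694), at 81.3 CPM in ectoderm and 0.0637 CPM in vesicle. Wnt4 was 65.9-fold higher (43.5 to 104), at 25.2 CPM in ectoderm and 0.382 CPM in vesicle. Wls was 2.64-fold higher (2.44 to 2.85), at 76.5 CPM in ectoderm and 29.0 CPM in vesicle. Each was higher in 5 of 5 libraries. The ratio of Wnt6 was 2018 without library 3, and that of Wnt4 was 104 without library 5. Of the 9 genes 5 passed the minimum level, and the median log2 ratio with 5 CPM added was -0.0017 over the 9 and 0.044 over all genes tested.

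Wnt7b was not called in this comparison, although it was at 3.63 CPM in ectoderm and 24.3 CPM in vesicle. Ectoderm of libraries 1 to 5 had 13.4, 1.15, 0.867, 4.26 and 2.92 CPM, against 5.47, 6.22, 8.95, 27.4 and 41.7 CPM in the vesicle. Library 1 alone ran the other way, and without it Wnt7b was called lower in ectoderm. Of its 24 ectodermal UMIs there, 22 were in the 15 cells of a cluster led by Krt7, at 28.5 CPM, and the 32 cells of a cluster led by Pitx1 had 1.97 CPM.

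Markers of crest mesenchyme were also found in the ectoderm class. All 11 of the 11 markers had more than 3 UMIs there, at a summed 236, 67.7, 86.1, 141 and 251 CPM in libraries 1 to 5, against 1199 CPM in the pooled crest class. Libraries 1 and 5, the highest for Wnt6 and Wls, were also the highest for these markers. In crest mesenchyme itself Wnt6, Wnt4 and Wls were at 0.136, 0.409 and 61.9 CPM. In library 4 Wls was at 62.1 CPM in crest and 55.8 CPM in ectoderm. The part of these markers in the ectodermal levels of Wnt6, Wnt4 and Wls was not tested.

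Within the ectoderm the ligands followed a boundary between its main clusters. Of the 405 cells, 186 fell in a cluster led by Krt7, a keratin of simple epithelia, and 219 in a cluster led by Pitx1, a homeobox gene of oral and anterior ectoderm. The WNT list was kept out of the clustering. Library 5 had 67 Krt7 cells and 0 Pitx1 cells, while libraries 1 to 4 had both. This comparison was chosen after the values were seen. By the same size rule, 4 of the 9 genes were higher in Krt7 ectoderm, where 2.22% of 9520 genes tested were, and 0 were lower, where 1.06% were. Only 4 of the 9 passed the minimum level.

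Wnt6 was at 115, 155, 138 and 135 CPM in Krt7 ectoderm of libraries 2 to 5, against 26.6, 0.409, 0.761 and 0 CPM in Pitx1 ectoderm of libraries 1 to 4. Every library of the Krt7 cluster exceeded every library of the Pitx1 cluster, and Krt7 libraries 2 to 5 lay close to each other. Pooled, the ratio was 45.6 (31.8 to 68.0), at 187 CPM in Krt7 and 4.10 CPM in Pitx1 ectoderm. The 15 Krt7 cells of library 1, too few to enter the libraries compared, held 383 of the 1000 Krt7 UMIs of Wnt6, at 495 CPM. Without library 1 the ratio was 284, and with libraries weighted equally it was 19.5.

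Wnt4 was at 25.3, 39.7, 44.6 and 99.1 CPM in Krt7 ectoderm of libraries 2 to 5, against 15.8, 4.09, 3.42 and 4.86 CPM in Pitx1 ectoderm of libraries 1 to 4, a pooled ratio of 9.28 (6.67 to 13.2). Wls was at 103, 117, 84.8 and 178 CPM in Krt7 ectoderm of libraries 2 to 5, against 65.0, 44.2, 36.1 and 24.3 CPM in Pitx1 ectoderm of libraries 1 to 4, a pooled ratio of 3.07 (2.67 to 3.53). For both genes every Krt7 library lay above every Pitx1 library, and without library 1 the ratio of Wnt4 was 14.1. Wnt7b was at 7.29 CPM in Krt7 and 0.956 CPM in Pitx1 ectoderm, and its call was lost without library 1, at a ratio of 4.69, and with equal library weights, at 2.92.

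**Figure D2:**
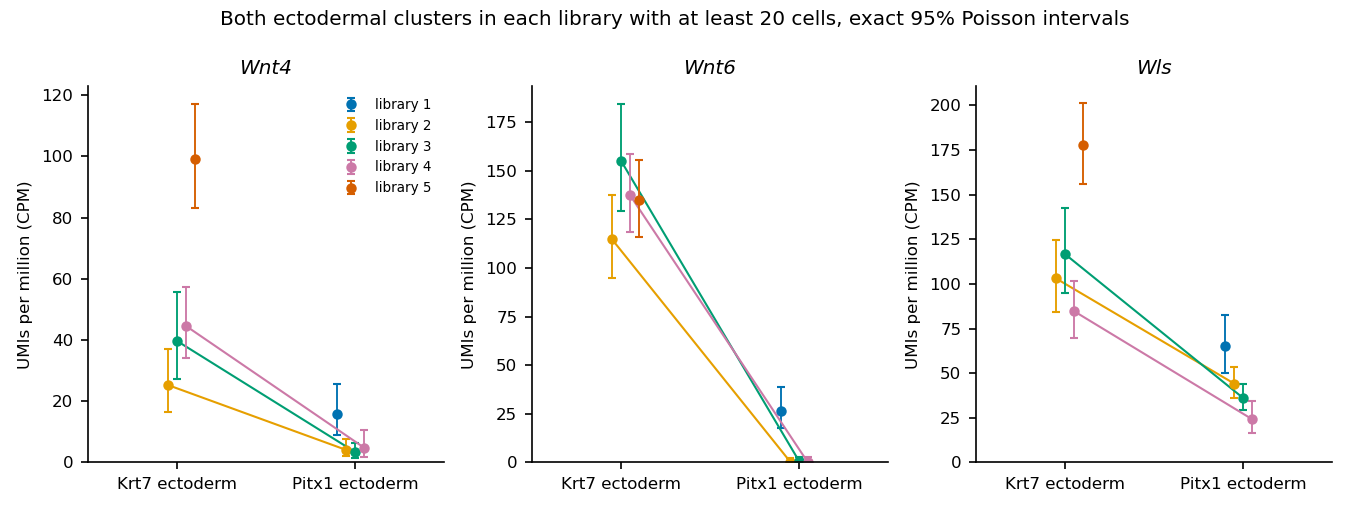
Wnt4, Wnt6 and Wls in the Krt7 and Pitx1 clusters of surface ectoderm, in CPM, for each library with at least 20 cells of the cluster. Points carry exact 95% Poisson intervals and lines join clusters of the same library. Krt7 ectoderm is above Pitx1 ectoderm in each of libraries 2 to 4, and library 5 is the highest for Wnt4 and Wls but not for Wnt6.

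Clustering the ectoderm again gave 8 sub-clusters that spread these genes further. A sub-cluster led by Neurog1 and Foxi2, both genes of cranial placodes, had 305 CPM of Wnt6, 78.9 CPM of Wnt4 and 151 CPM of Wls in 45 cells from all 5 libraries. A sub-cluster of 22 cells led by Ahnak and Plxna2, of which 21 were from library 5, had 361 CPM of Wnt6, 260 CPM of Wnt4 and 303 CPM of Wls. In contrast, 77 cells led by Acta2 and Shh had 0 UMIs of Wnt6 with 12.6 CPM of Wnt4. A sub-cluster led by Ebf1 and Bmp4 had 0.557 CPM of Wnt6 and 1.11 CPM of Wnt4, and 61 cells led by Hmx1, Sapcd1 and the lens gene Pitx3 had 31.7 and 20.4 CPM. Most sub-clusters lean on a few libraries, so a sub-cluster and a library cannot always be told apart.

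Within ectoderm, Wnt4 was detected in a larger share of the cells with Wnt6 than of those without it. With cells thinned to 10000 UMIs, 43.6% of the 101 cells with Wnt6 also had Wnt4 (33.7 to 53.8%), against 4.75% of the 295 cells without Wnt6 (2.62 to 7.83%). Inside the Krt7 cluster the shares were 46.8% of 94 cells with Wnt6 and 9.20% of 87 cells without it. Wls was detected in 68.1% of Krt7 cells with Wnt6 (57.7 to 77.3%) and in 50.6% of those without it (39.6 to 61.5%). Libraries and smaller sub-clusters were pooled in these shares, and their part was not tested.

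Wnt7b RNA came mainly from the neuroepithelium. In mouse it is known from lung and placenta, and it is a ligand for the vessels that enter the brain. Wnt7b (ENSMUSG00000022382, chromosome 15, 85535437 to 85582473) was at 36.6 CPM (34.9 to 38.3) in other forebrain and 24.3 CPM (23.1 to 25.6) in optic vesicle, which together held most of its 4298 UMIs. Other forebrain of libraries 1 to 4 had 54.4, 22.3, 15.4 and 60.5 CPM. Optic vesicle of libraries 1 to 5 had 5.47, 6.22, 8.95, 27.4 and 41.7 CPM. Each of libraries 1 to 4 was higher in forebrain, and in the vesicle libraries 4 and 5 stood well above libraries 1 to 3. Thinned to 10000 UMIs, 21.7% of forebrain cells (19.7 to 23.8%) and 17.1% of vesicle cells (15.3 to 18.9%) had a Wnt7b UMI, against 0 of 253 erythroid-like cells. Without thinning these shares were 37.5%, 34.0% and 0.395%.

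Wnt8b, which in zebrafish restricts the eye field, came mainly from the other forebrain. Wnt8b (ENSMUSG00000036961, chromosome 19, 44493472 to 44514273) was at 37.3 CPM (35.7 to 39.1) there, with 76.2% of its 2458 UMIs, and at 2.86 CPM (2.46 to 3.32) in the vesicle. Without library 1 the forebrain level was 17.7 CPM. Other forebrain of libraries 1 to 4 had 94.2, 29.5, 7.0 and 24.6 CPM, against 2.55, 2.24, 1.44, 1.26 and 4.94 CPM in optic vesicle of libraries 1 to 5. In forebrain library 1 was the highest and library 3 the lowest, yet the lowest exceeded every vesicle library. Erythroid-like cells of library 1, where forebrain Wnt8b was highest, had 4 UMIs of it, 2.16 CPM, close to the vesicle value of the same library. Thinned to 10000 UMIs, 15.3% of forebrain and 2.95% of vesicle cells had Wnt8b, against 0.395% of erythroid-like cells, and without thinning 23.4%, 7.71% and 1.58%.

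Against the optic vesicle, 3 of the 9 genes were higher in other forebrain, where 0.662% of 8916 genes tested were, and 0 were lower, where 0.819% were. Only 5 of the 9 passed the minimum level. Wnt8b was 13-fold higher (11.2 to 15.3), Rspo3 3.94-fold (3.51 to 4.43) and Wls 2.25-fold (2.13 to 2.39), each in 4 of 4 libraries. Without library 1 the ratio of Wnt8b was 6.15 and without library 5, which lacks this forebrain, it was 24.1. The ratio of Rspo3 was 6.92 without library 5. The call of Wls was lost without library 1, at a ratio of 1.96, and also at Leiden resolution 0.5, with WNT genes among the variable genes and with the unnamed neuroepithelium counted as forebrain. With Scrublet doublets kept only Wnt8b was called. Wnt7b was 1.5-fold higher (1.40 to 1.61) and not called, except without library 5. Rspo1, at 6.02 CPM in forebrain and 0.875 CPM in vesicle, was 6.88-fold higher before the added 5 CPM (5.15 to 9.34). Rspo2, at 4.15 and 0.796 CPM, was 5.21-fold higher (3.81 to 7.24). Both were higher in 4 of 4 libraries. With 5 CPM added Rspo1 did not reach the size asked, and Rspo2 lay under the minimum level and could not be called. The median log2 ratio with 5 CPM added was 0.66 over the 9 genes and 0.016 over all genes tested.

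Levels of Wnt8b and Wnt7b ranged widely across forebrain sub-clusters. In 273 cells led by Emx2 and Dmrt3, genes of the dorsal telencephalon, Wnt8b was at 122 CPM, Wnt7b at 71.8 CPM, Rspo3 at 57.1 CPM, Rspo1 at 18.2 CPM and Rspo2 at 14.1 CPM. In 186 cells led by Fgf17 and Fgf8, signals of the anterior midline, Wnt8b was at 69.7 CPM, Wnt7b at 49.9 CPM and Rspo3 at 32.1 CPM. Both came from libraries 1 and 2 only. In 204 cells led by Fabp7, Tubb2b and Pantr1, of which 193 were from library 4, Wnt7b was the highest of any sub-cluster at 90.6 CPM and Wnt8b was at 14.5 CPM.

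The lowest forebrain levels of Wls and Wnt7b were found in 2 clusters with Shh among their leading genes. In 231 cells whose leading genes include Shh and Nkx6-2, Wls was at 5.92 CPM, near the 3.95 CPM of erythroid-like cells, with Wnt7b at 5.14 CPM and Wnt8b at 0.312 CPM. In 199 cells whose leading genes include Shh and Nkx2-1, Wls was at 24.6 CPM and Wnt7b at 0.371 CPM. Without both clusters, an alternative chosen after seeing the data, the count of genes higher in forebrain became 4, with Rspo1 added.

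**Figure D3:**
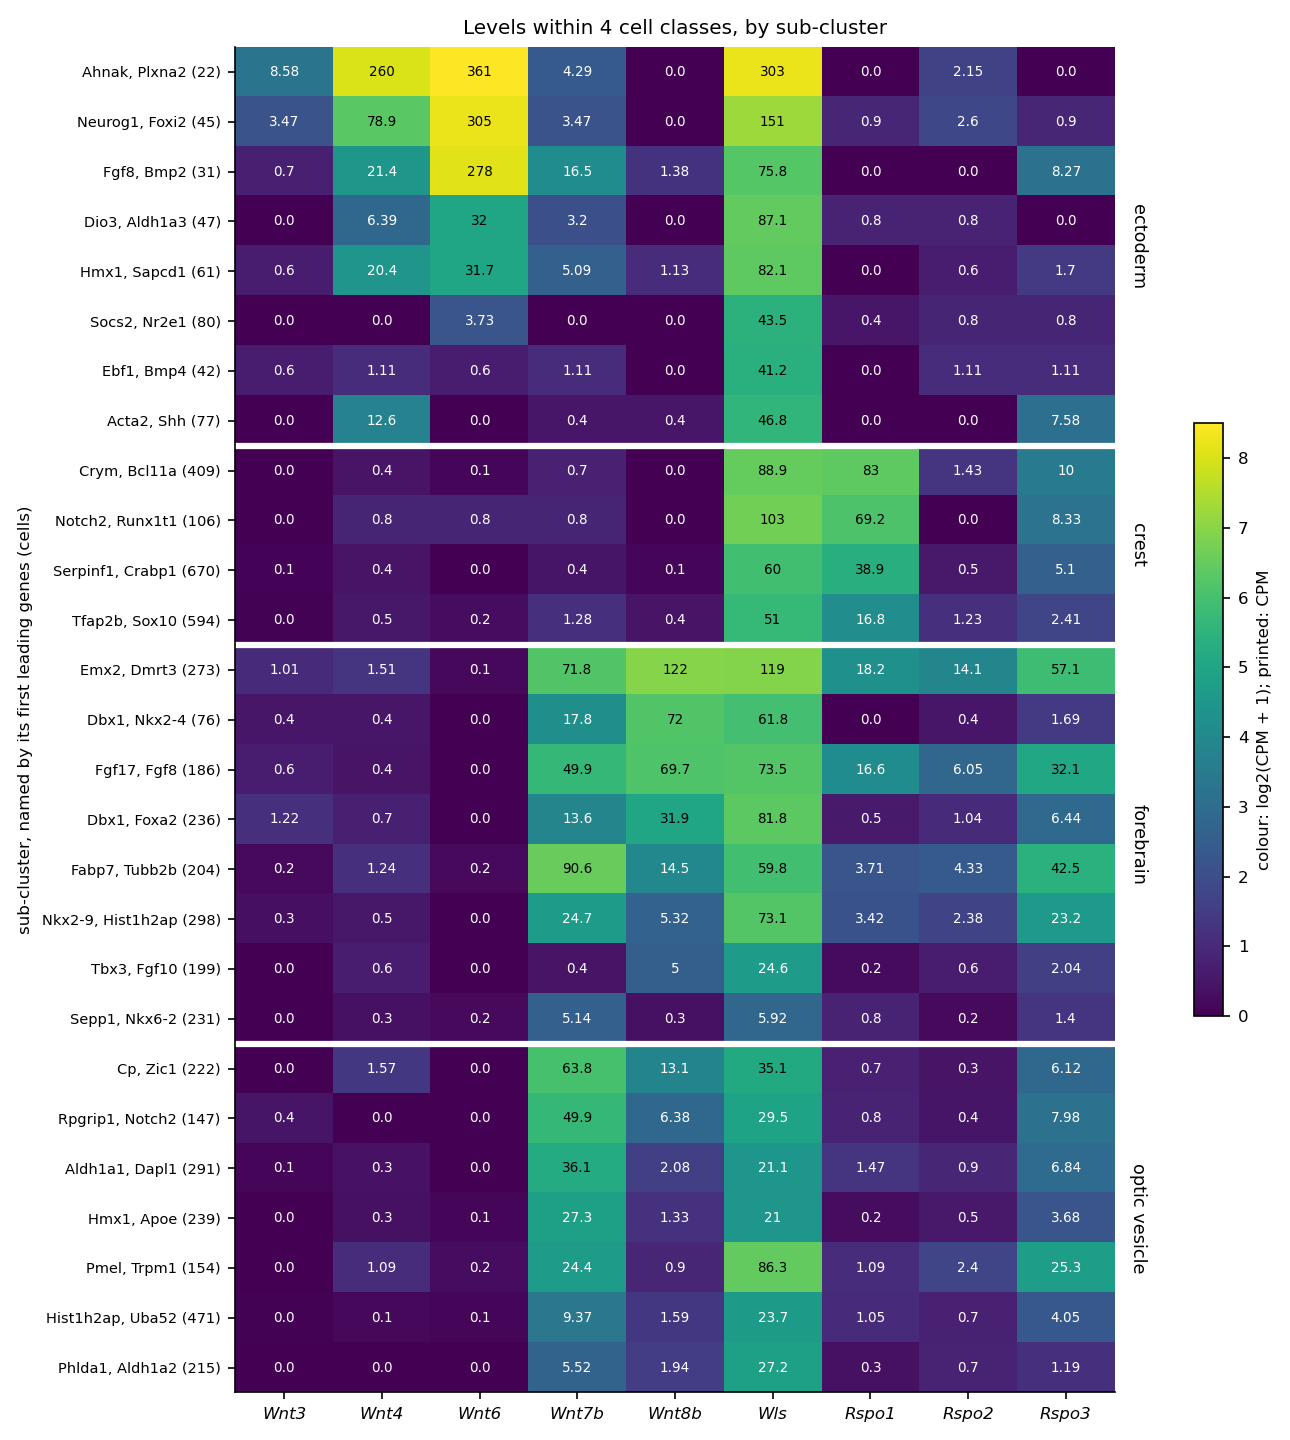
Level of each gene in sub-clusters with at least 20 cells, named by their first leading genes with the number of cells. Printed values are CPM and colour is log2(CPM + 1). Wnt6 runs from 0 to 361 CPM across the ectoderm, Rspo1 from 16.8 to 83.0 CPM across the crest, Wnt8b is highest in the Emx2 cluster, and Wls reaches 86.3 CPM in the Pmel cluster of the optic vesicle against 21.1 CPM in its Aldh1a1 cluster.

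Within the optic vesicle, Wnt7b ranged from 5.52 CPM in 215 cells led by Phlda1 and Aldh1a2, all from libraries 1 and 2, to 63.8 CPM in 222 cells led by Cp, Zic1, Vwc2 and the optic stalk gene Pax2, of which 221 were from library 5. The retina-like cluster, led by Aldh1a1, Dapl1 and Hmx1, and the pigment epithelium-like cluster, led by Pmel, Trpm1 and Dct, also came from library 5, with 289 of 291 and 151 of 154 cells. Set against each other in that library, 2 of the 9 genes were higher in pigment epithelium, where 1.09% of 9415 genes tested were, and 0 were lower, where 0.637% were. Only 3 of the 9 passed the minimum level. Wls was 4.09-fold higher (3.48 to 4.82), at 86.8 CPM in pigment epithelium and 21.2 CPM in retina. Rspo3 was 3.74-fold higher (2.79 to 5.05), at 25.7 CPM in pigment epithelium and 6.87 CPM in retina, and 11.0-fold higher at Leiden resolution 2. Wnt7b was at 24.6 CPM in pigment epithelium and 36.2 CPM in retina, a ratio of 0.68 (0.546 to 0.841) that was not called. Both clusters are from 1 embryo, so there is no second library to set beside this.

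**Figure D4:**
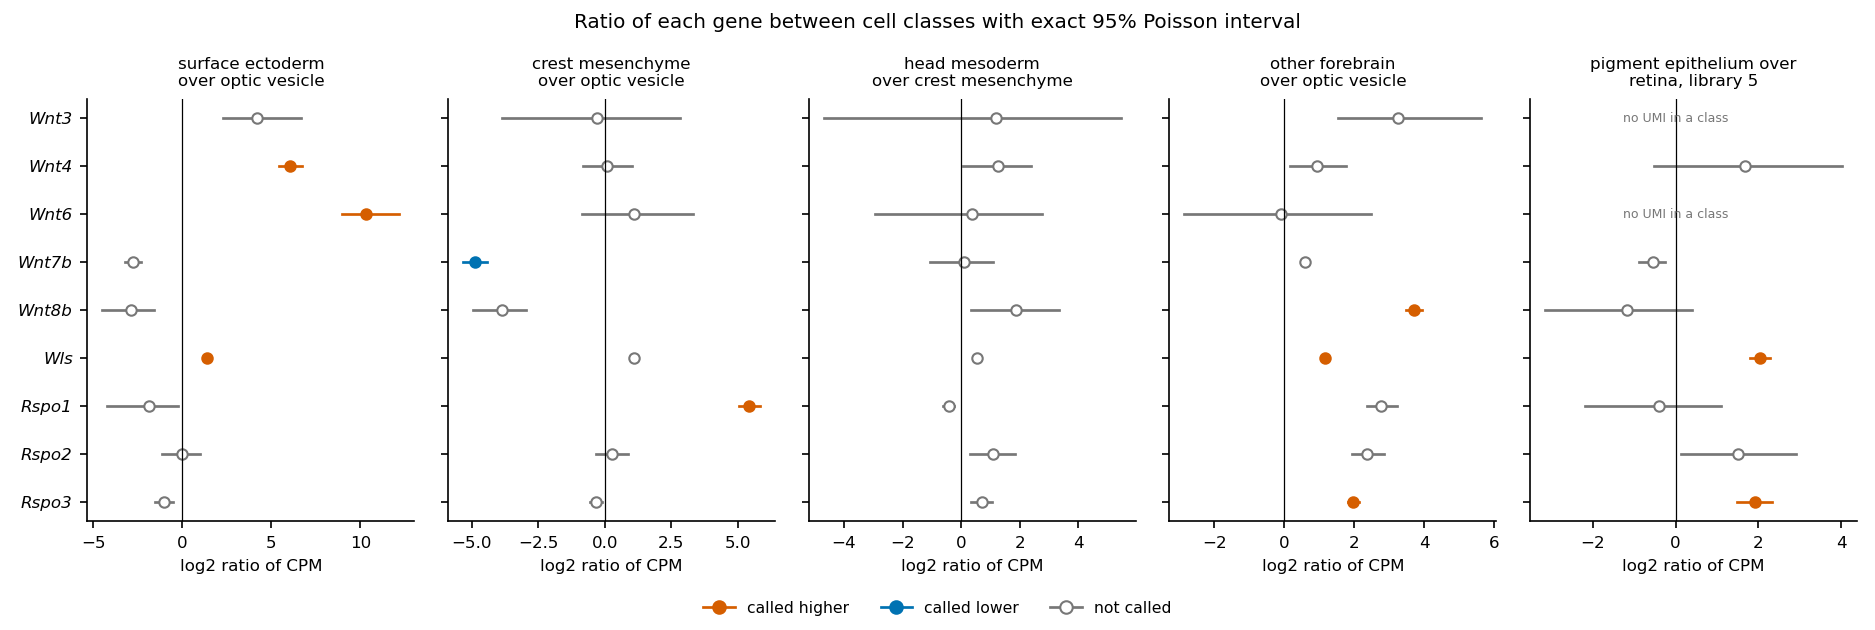
Ratio of each gene between cell classes on a log2 axis, with the exact 95% Poisson interval. Filled orange points were called higher and filled blue points lower in the class named first, and open grey points were not called. Wnt6 and Wnt4 in ectoderm and Rspo1 in crest mesenchyme lie farthest above the optic vesicle, and Wnt7b in crest lies farthest below it.

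Wls, the carrier that every secreted WNT is thought to need, was the most broadly found of the 9 genes, with 12495 UMIs in 4935 cells. Wls (ENSMUSG00000028173, chromosome 3, 159839672 to 159938664) was at 90.9 CPM in head mesoderm, 76.5 CPM in ectoderm, 65.4 CPM in other forebrain, 61.9 CPM in crest mesenchyme, 30.2 CPM in endothelium, 29.0 CPM in optic vesicle and 3.95 CPM in erythroid-like cells. In this order only endothelium and optic vesicle were within counting error of each other. With libraries weighted equally ectoderm came first. Head mesoderm of libraries 1 to 4 had 100.02, 87.5, 89.3 and 58.2 CPM, above the ectoderm of the same library each time. The intervals of both classes overlapped in libraries 1 and 4. In library 4, with 26 head mesoderm cells, crest mesenchyme was higher than either, at 62.1 CPM.

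Ectoderm of libraries 1 to 5 had 97.9, 61.6, 55.5, 55.8 and 178 CPM of Wls, against 36.8, 20.1, 24.1, 20.9 and 37.3 CPM in optic vesicle. The lowest ectodermal library was above the highest vesicle library. Thinned to 10000 UMIs, 54.8% of head mesoderm, 46.9% of crest, 44.4% of ectodermal, 43.1% of forebrain, 23.9% of endothelial and 23.0% of vesicle cells had a Wls UMI, against 3.56% of erythroid-like cells (1.64 to 6.65%). Without thinning the shares of the first 6 classes ranged from 45.0 to 86.6%, against 14.6% of erythroid-like cells. In other forebrain 65.4% of cells with Wnt8b had Wls (59.2 to 71.2%), against 39.1% of cells without (36.5 to 41.7%). In optic vesicle 34.3% of cells with Wnt7b had Wls (28.8 to 40.0%), against 20.6% of cells without (18.5 to 22.8%). In crest mesenchyme 50.3% of cells with Rspo1 had Wls (45.7 to 54.9%), against 45.5% of cells without (42.7 to 48.3%). These shares pool sub-clusters and libraries that differ in level. The Emx2 forebrain cluster of library 1 had 146 CPM of Wnt8b and 118 CPM of Wls. The Shh and Nkx6-2 cluster of library 3 had 0 UMIs of Wnt8b and 7.82 CPM of Wls. The part of such differences was not tested.

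Rspo1, known for its part in ovary formation, came mainly from both mesenchymes. Rspo1 (ENSMUSG00000028871, chromosome 4, 124986430 to 125009099) was at 37.4 CPM (35.7 to 39.1) in crest mesenchyme and 27.8 CPM (24.8 to 31.1) in head mesoderm, and at 0 UMIs in erythroid-like cells, which allows up to 0.339 CPM. Crest of libraries 1 to 5 had 11.3, 28.1, 22.6, 46.0 and 81.2 CPM, while head mesoderm of libraries 1 to 4 had 29.4, 23.8, 29.3 and 23.3 CPM. Crest varied widely, with library 1 the lowest and library 5 the highest, whereas head mesoderm hardly varied, and head mesoderm was the higher of both in libraries 1 and 3, and in the pooled cells without library 5. Thinned to 10000 UMIs, 28.0% of crest cells (25.9 to 30.2%) and 21.0% of head mesoderm cells (17.2 to 25.1%) had a UMI of Rspo1, against 0 of 253 erythroid-like cells. Without thinning the shares were 49.6% of crest and 39.0% of head mesoderm cells.

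Rspo1 also differed between crest clusters. The 594 cells led by Tfap2b and Sox10, a gene of migrating crest, had 16.8 CPM, with 247 cells from library 1 and 275 from library 2. The 670 cells led by Serpinf1 and Crabp1, mostly from libraries 3 and 4, had 38.9 CPM, and the 409 cells led by Crym and Bcl11a, of which 405 were from library 5, had 83.0 CPM. The Crym cluster and library 5 cannot be told apart. The Serpinf1 cluster had 53.5, 25.8 and 49.3 CPM in libraries 2, 3 and 4, against 26.4, 5.39 and 0 CPM in the Sox10 cluster of the same libraries, so the Serpinf1 cluster was the higher in each of them, with 21 to 349 cells against 24 to 275.

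Against the optic vesicle, 1 of the 9 genes was higher in crest mesenchyme, where 3.39% of 9193 genes tested were, and 1 was lower, where 3.69% were. Only 4 of the 9 passed the minimum level. Rspo1 was 42.7-fold higher (32.7 to 56.9), at 37.4 CPM in crest and 0.875 CPM in vesicle, and Wnt7b was 29.1-fold lower (21.5 to 40.3), at 0.837 CPM in crest and 24.3 CPM in vesicle. Without library 5 the ratio of Wnt7b, crest over vesicle, was 0.0648 in place of 0.0344. Wls lay at the edge of the size rule, 2.13-fold higher (2.01 to 2.26) in 5 of 5 libraries, and without library 1 or library 5 it was called. Head mesoderm over crest mesenchyme gave 0 of the 9 genes higher, where 1.62% of 8907 genes tested were, and 0 lower, where 0.662% were. Only 3 of the 9 passed the minimum level in this comparison, so the others could not be called. There Rspo3 was at 7.89 CPM in head mesoderm and 4.83 CPM in crest, and Wls at 90.9 CPM in head mesoderm and 61.9 CPM in crest. The median log2 ratio of the 9 genes with 5 CPM added was 0.0072 for crest over vesicle and 0.14 for head mesoderm over crest, beside 0.044 and 0.0085 over all genes tested.

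Rspo1 was also found in forebrain of library 1. Other forebrain of libraries 1 to 4 had 17.0, 1.76, 2.41 and 2.39 CPM, with library 1 far above the rest. Crest mesenchyme markers in the same cells summed to 52.9, 37.0, 31.0 and 30.7 CPM, also highest in library 1. In optic vesicle these markers summed to 49.1 to 70.6 CPM, and Rspo1 was at 1.15 CPM or less in every library. The part of these markers in the Rspo1 level of either class was not tested.

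Rspo3, an R-spondin of vessel and placenta development, was highest in other forebrain. Rspo3 (ENSMUSG00000019880, chromosome 10, 29452416 to 29535867) was at 24.0 CPM (22.7 to 25.4) there, with 50% of its 2408 UMIs, and at 7.89 CPM in head mesoderm and 6.10 CPM in optic vesicle. Other forebrain of libraries 1 to 4 had 27.1, 33.4, 14.9 and 26.6 CPM, against 1.46, 0.995, 4.10, 3.68 and 10.3 CPM in optic vesicle of libraries 1 to 5. The classes did not overlap, and the vesicle was highest in library 5, where its pigment epithelium-like cluster had 25.7 CPM. Of forebrain cells with Wnt8b 37.0% had Rspo3 (31.1 to 43.3%), against 8.28% of those without (6.89 to 9.85%). Forebrain sub-clusters and libraries were pooled in these shares, and their part was not tested.

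Rspo2, known from limb, lung and face, was the least abundant R-spondin of the set, with 445 UMIs. Rspo2 (ENSMUSG00000051920, chromosome 15, 43020794 to 43170826) was at 4.15 CPM (3.6 to 4.75) in other forebrain and 2.04 CPM (1.29 to 3.06) in head mesoderm. Other forebrain of libraries 1 to 4 had 8.08, 5.09, 1.53 and 2.77 CPM, against 1.09, 0.497, 0.745, 0.485 and 0.988 CPM in optic vesicle of libraries 1 to 5. Forebrain was above the vesicle in every library but at no more than 104 UMIs each, and endothelium and erythroid-like cells had 0 UMIs.

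Among all 19 WNT ligands, the mix differed by class. In Krt7 ectoderm ligand UMIs summed to 307 CPM, of which Wnt6 made up 60.9% (58.5 to 63.2%) and Wnt4 16.9%. In Pitx1 ectoderm they summed to 65.0 CPM, of which Wnt5b made up 54.2% (49.6 to 58.7%) and Wnt5a 26.1%. Both are ligands known mainly for beta-catenin-independent signal. Ligands of crest mesenchyme summed to 29.4 CPM, with Wnt5a at 67.6%, and those of head mesoderm to 27.5 CPM, with Wnt5a at 57.1%.

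Other forebrain had 117 CPM of ligand, split between Wnt8b at 31.9%, Wnt7b at 31.3% and Wnt5b at 25.8%. Optic vesicle had 65.3 CPM, with Wnt5b at 49.2% (47.7 to 50.8%) and Wnt7b at 37.3% (35.8 to 38.8%). Endothelium and erythroid-like cells had 1.93 and 2.02 CPM of all ligands. Wnt2 reached 5.44 CPM in ectoderm, and all 69 of its UMIs there were in the Krt7 cluster. Of the 4 R-spondins, Rspo1 made up 86.3% of R-spondin UMIs in crest and 73.7% in head mesoderm, while Rspo3 made up 69.8% in other forebrain and 76.0% in optic vesicle.

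**Figure D5:**
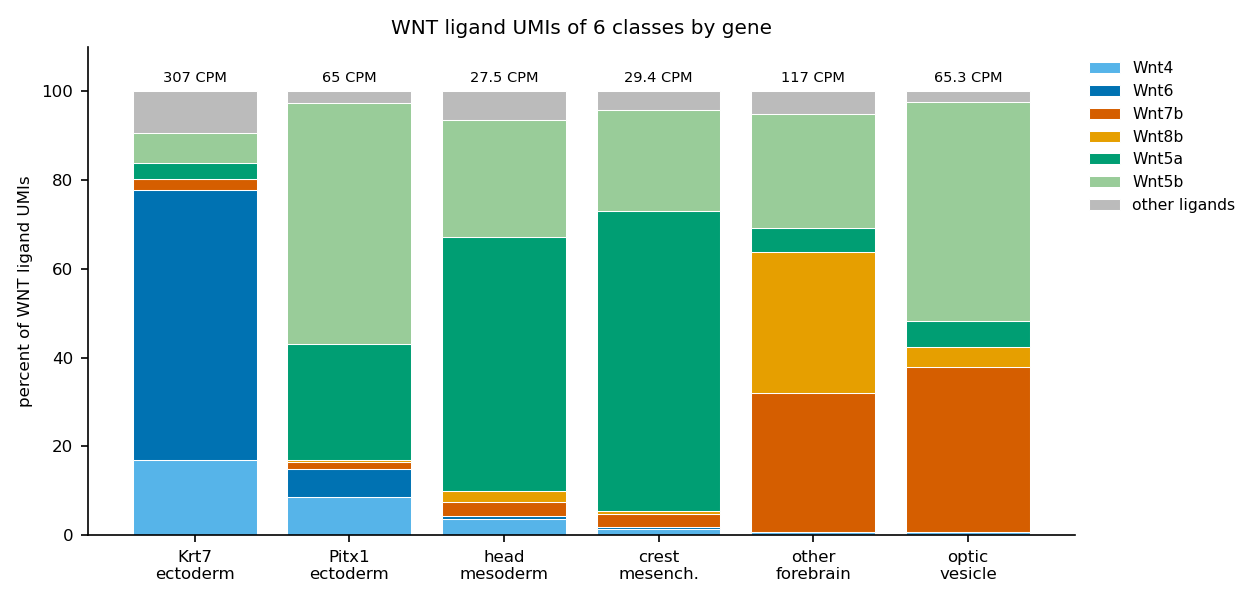
Share of all WNT ligand UMIs held by each gene in 6 classes, in percent, with the summed ligand level in CPM above each bar. Wnt6 and Wnt4 fill most of Krt7 ectoderm, Wnt5a and Wnt5b most of Pitx1 ectoderm and both mesenchymes, Wnt5b and Wnt7b most of optic vesicle, and Wnt8b, Wnt7b and Wnt5b most of other forebrain.

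Pairs of WNT genes that lie side by side on a chromosome were compared as well, a choice made after their values were seen. Wnt10a starts 6193 bases downstream of Wnt6 on the same strand, and had 22 UMIs in all, 21 of them in ectoderm, at 1.66 CPM. Wnt9b and Wnt3 lie 24328 bases apart on opposite strands, and Wnt9b was at 2.52 CPM in ectoderm and at 0 UMIs in other forebrain, where Wnt3 had 23.

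Receptors, antagonists and targets came from a list of 88 WNT genes, the 9 included. For ectoderm over vesicle 7 of its 51 genes tested were higher and 3 lower, beside 4.68% and 1.41% of all genes tested. For crest over vesicle 11 of 51 were higher and 8 lower, beside 3.39% and 3.69%, and for head mesoderm over crest 4 and 0 of 47, beside 1.62% and 0.662%. For other forebrain over vesicle 5 of 46 were higher and 3 lower, beside 0.662% and 0.819%, and for pigment epithelium over retina 4 and 3 of 46, beside 1.09% and 0.637%. The median log2 ratio of the list with 5 CPM added lay between 0 and 0.10 in these comparisons, except at -0.0016 for head mesoderm over crest. In Krt7 over Pitx1 ectoderm 8 of 50 were higher and 5 lower, beside 2.22% and 1.06%.

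Outside the 9 genes, the largest called ratios of the list between ectoderm and vesicle were those of 2 antagonists. Sostdc1, a secreted BMP and WNT antagonist, was 73.2-fold higher in ectoderm (61.4 to 87.9), at 156 CPM, and within ectoderm it was at 345 CPM in Krt7 and 18.4 CPM in Pitx1 cells. Dkk1, which blocks Lrp6, was 6.07-fold lower in ectoderm, at 4.73 CPM in ectoderm and 28.7 CPM in vesicle, and Sfrp1, a decoy for WNT, was 4.38-fold lower. The Wnt5a receptor Ror2 and the glypican Gpc3 were 4.75-fold and 4.18-fold higher in ectoderm. Among the most unequal genes of both ectodermal clusters, Dkk3 was 14.1-fold and the receptor Ror1 6.69-fold higher in Krt7 cells, while Fzd5 was 7.22-fold and the transcription factor Sp8 4.25-fold lower.

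Axin2, the feedback inhibitor used as a readout of canonical signal and named here after its values were seen, was at 18.9 CPM in Krt7 and 5.05 CPM in Pitx1 ectoderm, a ratio of 3.74 (2.54 to 5.60). It was at 18.2 CPM in crest and 4.73 CPM in vesicle, and was called higher in Krt7 ectoderm and in crest. The WNT list holds 10 target or feedback genes, Axin2 and Sp8 among them. Of these, 7 were tested in Krt7 over Pitx1 ectoderm and 7 in crest over vesicle. In Krt7 over Pitx1 ectoderm 1 was called higher and 2 lower, beside 2.22% and 1.06% of all genes tested. The median log2 ratio of the 10 was -0.21 there, beside 0.039 over all genes tested. For crest over vesicle 2 were called higher and 0 lower, beside 3.39% and 3.69%.

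For crest over vesicle, the largest called ratios outside the 9 genes were those of receptors. Adgra2, which with Reck forms the receptor for Wnt7 ligands, was 25.0-fold higher in crest (19.1 to 33.4) and Reck 5.25-fold (4.44 to 6.24), and Adgra2 was at 33.5 CPM in endothelium. Fzd5, a Frizzled of the eye field, was 24.4-fold lower in crest, at 0.837 CPM in crest and 20.4 CPM in vesicle. The R-spondin receptor Lgr5 was 12.4-fold lower and Dkk1 17.8-fold lower. Lgr4, another R-spondin receptor that was also chosen after its values were seen, was at 27.5 CPM in ectoderm, 7.55 CPM in crest and 13.4 CPM in vesicle, and was not called in either comparison with the vesicle, while it was 2.34-fold lower in Krt7 than in Pitx1 ectoderm (1.82 to 3.03).

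Between the mesenchymes, Dkk1 was 11.4-fold higher in head mesoderm (8.76 to 14.8), the target gene Sp5 4.31-fold, Gpc3 2.57-fold and the feedback gene Nkd1 2.17-fold. In other forebrain Sp5 was 7.90-fold higher than in vesicle and Gpc3 2.89-fold, while Dkk3 was 8.64-fold, Lgr5 7.88-fold and Sfrp2 2.31-fold lower. In pigment epithelium of library 5 the inhibitor Wif1 was 5.73-fold and Fzd4 2.43-fold higher than in retina, while Fzd5 was 6.06-fold, Sfrp2 5.32-fold and the cyclin gene Ccnd1 2.15-fold lower.

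The genes most like each member were ranked by Pearson's r of log2(CPM + 1) over 43 units, each a class in a library with at least 20 cells, among 10573 genes. These units share libraries, depth and cell classes and are not independent, so r is a description only. Wnt6 was most like Il17re, Cldn8 and Sfn (r of 0.986 to 0.991), and Wnt4 most like Galnt3, Adamts18 and Gm42637 (0.943 to 0.959). Wnt7b was most like Fezf2, Mapk8ip2 and Pak3, Wnt8b most like Barhl2, Rfx4 and Gm3764, and Rspo1 most like Prrx1, Ptgfr and Cygb. Wls was most like Kdm5b, Socs6 and Brd3, Rspo2 most like Epha7, Barhl2 and Wnt8b, Rspo3 most like Ncald, Prss23 and Rbpms2, and Wnt3 most like Trp63, Wnt2 and 4631405K08Rik. Between members, r was highest for Wnt4 with Wnt6, at 0.93, followed by Wnt7b with Wnt8b at 0.76.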

How the data were processed

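The deposited matrix holds UMI counts per gene and barcode. Cell Ranger with builds mm10 and GRCm38 made them, per the submitters' processing notes, and the version, cell calling and any equalising of depth are not stated there. The 10x 3′ kit was used, per the labels' protocols. Gene coordinates came from GENCODE vM21 on GRCm38. Of 8194 barcodes, 22 with over 10% mitochondrial UMIs and 66 Scrublet doublets (0.808%, with 6% expected) were removed, and 0 had under 1000 genes. scanpy 1.11.5 used 2000 variable genes, 30 components, 15 neighbours and Leiden resolution 1. The 88 WNT genes were kept out of clustering. Raw counts were summed per class and library. The size rule was tried on simulated Poisson counts with the same rate in every library, so without variation between embryos or cells. That trial cannot show how often the rule errs in these data. No test was run: libraries that cannot be tied to a stage were not treated as replicates, and class ratios were compared within each library by direction only. The members and lists were chosen with earlier results of these data known, and the rule that names clusters was set after the data were seen. Named genes are the 9 members, other WNT ligands of at least 5 CPM in a class, up to 5 called genes of the WNT list per comparison by size of ratio, and the 3 genes most like each member. Alternatives changed the clustering, doublets, depth minimum, prior, library weights, minimum level and libraries.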

Additional observations from a re-analysis of the deposited data

How the results depend on the processing

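Of the called ratios recalculated under the alternatives, 0 changed direction. This says little, because a call already asks for the same direction in every library compared. Leaving out or reweighting libraries could hardly reverse such a ratio, and the prior and minimum level do not enter the raw ratio. The number of the 9 genes called kept within 1.5 times its value in 133 recalculations and moved in 9, and the ratio of a called gene kept its call in 153 and lost it in 9. The 133 include counts of 0 that stayed 0, as in all 13 settings for either direction of head mesoderm over crest. They also include changes from 3 to 4 genes, as for other forebrain over vesicle. For crest mesenchyme over optic vesicle the count of higher genes was 2 instead of 1, Wls being added, at Leiden resolution 2, with WNT genes among the variable genes, with equal library weights, with 1 CPM added in place of 5, and, as an alternative chosen after seeing the data, without crest clusters led by Sox10. Leaving out each library in turn gave 1 to 2 there, 2 without library 1 and without library 5. For other forebrain over vesicle the count fell to 1, Wnt8b, with doublets kept. For ectoderm over vesicle, leaving out each library gave 0 to 1 lower genes, Wnt7b without library 1. Called ratios that moved by over 1.5 times were those of Wnt4 in ectoderm over vesicle (104 without library 5 and 144 with equal weights), Wnt6 in ectoderm over vesicle (2018 without library 3 and 2196 with equal weights), Rspo3 in forebrain over vesicle (6.92 without library 5 and 6.22 with equal weights), Wnt8b in the same comparison (6.15 without library 1 and 24.1 without library 5), Wnt7b in crest over vesicle (0.0344 as reported, 0.0648 without library 5, 0.0201 at resolution 2, and 0.021 without the crest clusters led by Sox10), Wnt4 in Krt7 over Pitx1 ectoderm (14.1 without library 1), Wnt6 in the same comparison (284 without library 1 and 19.5 with equal weights), Wnt7b there (4.69 without library 1 and 2.92 with equal weights), and Rspo3 in pigment epithelium over retina (11.0 at resolution 2). Levels in the class of highest level that moved as far were those of Wnt8b (17.7 CPM without library 1), Wnt4 (16.2 CPM without library 5) and Wnt3 (0.531 CPM without library 5). The cause was not tested.

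Of the 88 WNT genes, those called higher were 11 without library 5 for ectoderm over vesicle against 7, and 6 at a minimum of 20 CPM for crest over vesicle against 11. For head mesoderm over crest they were 2 at resolution 2 against 4, with 1 to 4 lower genes in several settings against 0. For forebrain over vesicle they were 8 with 1 CPM added and 3 without library 1 against 5. For Krt7 over Pitx1 ectoderm they were 5 at a minimum of 20 CPM against 8. At resolution 0.5 no pigment epithelium and retina sub-clusters formed, so that comparison has no value. Without library 5 the class with most Rspo1 was head mesoderm. Stages were not paired, because the labels give them 1 sample each with no shared replicate number, and the libraries are tied to no stage. Classes share a library and could be paired within it, but no paired test was planned or run. Classes were set against each other within each library by direction. With 44 UMIs of Wnt3, depth limits any order of its classes.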

Other observations

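Cells outside the named classes also held the genes. A cluster of 198 cells low in nuclear RNA, led by Spdl1 and Hmmr, had 63.6 CPM of Wnt8b, 50.4 CPM of Wnt7b and 36.7 CPM of Rspo3, levels above those of the pooled other forebrain. Migratory neural crest-like cells, 33 in number, had 86.2 CPM of Wls and 0 UMIs of Rspo1, while crest mesenchyme had 37.4 CPM of Rspo1. Clusters with markers of several classes had 14.0 and 32.6 CPM of Rspo1 together with 19.6 and 25.5 CPM of Wnt7b in 253 and 37 cells.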
